A study of Caenorhabditis elegans with 92 samples.

Results

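Condensin II was found at 961 autosomal sites in wild-type C. elegans embryos, and 576 of these sites overlapped no peak of AMA-1, the large subunit of RNA polymerase II. A condensin II site was a stretch of bases covered by the peaks of at least 2 of the 3 subunits that only condensin II carries (KLE-2, HCP-6 and CAPG-2), with adjacent bases merged. The same rule gave 1163 sites on all chromosomes, of which 202 lay on the X. The 576 sites, called sites without AMA-1 below, are compared mainly with the other 385 autosomal condensin II sites, each of which overlapped an AMA-1 peak by at least 1 base. The sites were thus chosen by the peaks of KLE-2, HCP-6, CAPG-2 and AMA-1, and these 4 lists are described here without a test.

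Condensins are ring-shaped complexes of a pair of SMC ATPases and 3 non-SMC subunits that compact and organise chromosomes. In C. elegans, condensins I and II share MIX-1 and SMC-4 and differ in their non-SMC subunits. Condensin I-DC, the dosage compensation form that binds the hermaphrodite X, is condensin I with the SMC-4 variant DPY-27 in place of SMC-4. SCC-2, also named PQN-85, is part of the complex that loads cohesin, a related ring, onto chromosomes. Active genes recruit RNA polymerase II to their promoters and bodies, so an AMA-1 peak marks a transcribed or polymerase-loaded region in at least some cells of the sample.

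Chromatin immunoprecipitation with sequencing (ChIP-seq) had been done on whole animals. The wild type was strain N2, as mixed-stage embryos taken from gravid adults or as larvae at the third stage (L3) from a synchronous liquid culture. The mutant was strain TY1072, which carries her-1(e1520) on chromosome V and sdc-2(y74) on the X and lacks SDC-2, the hermaphrodite factor that brings condensin I-DC to the X. TY1072 is genetically male and tetraploid (AAAA XX), so the her-1 and sdc-2 mutations, sex and ploidy cannot be told apart in any comparison with it. Among the wild-type embryo lists, that of AMA-1 came from 2 libraries, those of KLE-2, SCC-2, SMC-4, CAPG-1 and the nonspecific antibody IgG from 3 each, those of HCP-6, DPY-27 and DPY-28 from 4 each, and those of CAPG-2, MIX-1 and DPY-26 from 5 each. There were 4 libraries for L3 KLE-2, 2 each for mutant KLE-2, HCP-6 and DPY-26, and 3 for mutant SCC-2. Mixed embryos and whole larvae hold many cell types, and a peak list does not say which of them carry a protein.

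Each protein and strain had 1 peak list pooled over its libraries. No list gave a value per library, so no spread between replicates could be computed and no test was made. Shares of sites are given with exact (Clopper-Pearson) 95% intervals and differences with Newcombe's 95% intervals, which cover counting error only and treat sites as independent. The height of a peak is its MACS score, -10 times log10 of its p-value against input, which ranks peaks within a list and ended at 3100 in the lists that reached the top. A score percentile is the rank of a peak's score among the autosomal peaks of its own list. The number of reads behind each list was not analysed here, so differences in list size can reflect sequencing depth or antibody as well as binding.

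Most sites without AMA-1 were short, and the KLE-2 and HCP-6 pair without CAPG-2 was their commonest composition. KLE-2 peaks lay at 524 of the 576 sites, HCP-6 peaks at 525 and CAPG-2 peaks at 303. KLE-2 with HCP-6 and no CAPG-2 was found at 273 sites (47.4%), followed by all 3 subunits at 200 (34.7%). HCP-6 with CAPG-2 was found at 52 sites and KLE-2 with CAPG-2 at 51. At sites with AMA-1 the order of the 2 leading compositions was the other way round. There all 3 subunits lay at 207 sites (53.8%) and KLE-2 with HCP-6 and no CAPG-2 at 138 (35.8%). The CAPG-2 list was the shortest of the 3, with 597 autosomal peaks, while KLE-2 had 1238 and HCP-6 had 1373.

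The sites without AMA-1 had a median width of 1156.5 bp, with a middle range of 1089.75 to 1319.75 bp and extremes of 15 and 4789 bp. Sites with AMA-1 had a median of 1505 bp and reached 11990 bp. Only 36 sites without AMA-1 (6.25%) were at least 2000 bp wide, against 123 (31.9%) of those with AMA-1. A wider site has more bases in which any peak can fall, AMA-1 included, so width enters the rule itself. The median KLE-2 score was 592.1 at sites without AMA-1 and 891.61 at sites with it, and the median HCP-6 score was 539.02 and 856.23. Averaged over the condensin II lists that cover a site, the median score percentile was 49.1 without AMA-1 and 61.8 with it.

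The sites without AMA-1 lay at widely varying distances from the polymerase. The median distance from a site without AMA-1 to the nearest AMA-1 peak was 5697.5 bp, and the distances ran from 7 to 141519 bp. Within 500 bp of an AMA-1 peak lay 50 sites (8.68%), within 1000 bp 90 sites, and farther than 20000 bp 136 sites (23.6%). AMA-1 peaks, with a median width of 2144 bp, covered 8.29% of the autosomal span. An AMA-1 list holds only peaks past its cutoff, so weaker polymerase at these sites would not be listed.

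**Figure D1:**
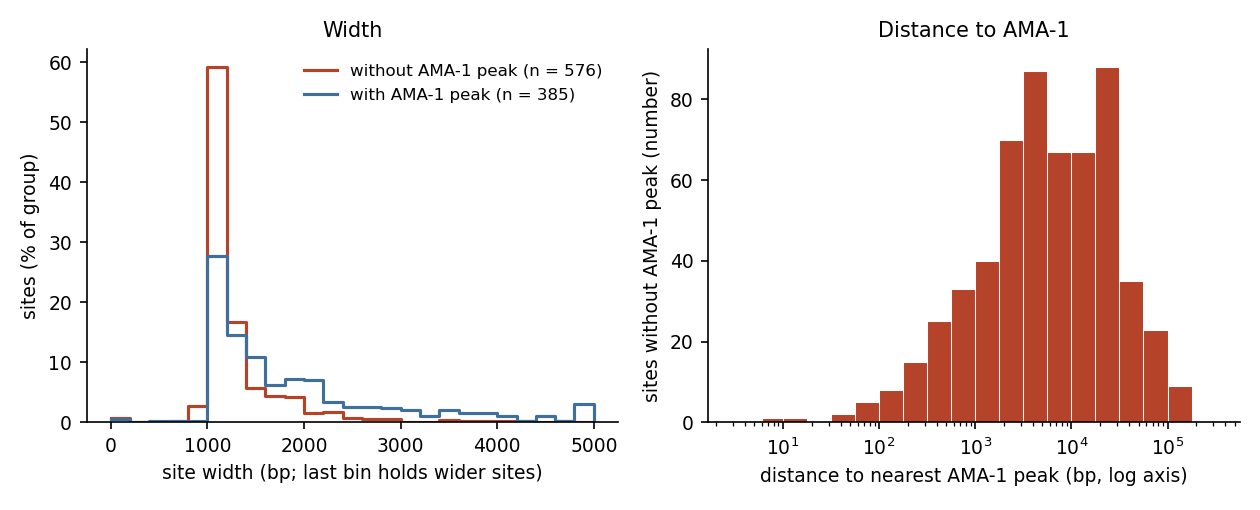
Left, width of the autosomal condensin II sites in bins of 200 bp, as a percentage of the 576 sites without and the 385 sites with an AMA-1 peak (last bin: all wider sites). Right, number of sites without an AMA-1 peak by distance to the nearest one, on a log axis. Sites without AMA-1 crowd into the bin from 1000 to 1200 bp, and their distances to AMA-1 spread over several orders of magnitude around the median of 5697.5 bp.

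The edge of the rule is shown by 6 sites. The sites without AMA-1 that came nearest to a peak were chrIII:7497392-7499119 (WS220, as all positions here), 7 bp away, chrIV:7386711-7387926, 12 bp away, and chrV:6017260-6018345, 38 bp away. The first held all 3 subunits with a KLE-2 score of 1416.51, an SCC-2 score of 305.5, an SMC-4 score of 314.63 and an L3 KLE-2 score of 3100. The second held KLE-2 and HCP-6 peaks and an SCC-2 peak (score 220.63), and the third held KLE-2 and HCP-6 peaks and an L3 KLE-2 peak (score 3100). Just past the edge, chrIII:3471078-3472824 shared 1 bp with an AMA-1 peak, chrIII:4279836-4279848, itself 13 bp wide, lay wholly inside one, and chrII:14059373-14060441 shared 20 bp. The 3 sites without AMA-1 were in 3, 1 and 1 of the other lists, and the 3 with it in 1, 0 and 2.

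The sites without AMA-1 were found in the cohesin loader and SMC lists less often than sites with AMA-1, but in the larval KLE-2 list about as often. SCC-2 peaks lay at 261 of 576 sites without AMA-1 (45.3%, 41.2 to 49.5) and at 282 of 385 with it (73.2%, 68.5 to 77.6), where 56.5% of all 961 autosomal sites overlapped the list. The difference, without minus with AMA-1, was -27.9 percentage points (-33.7 to -21.8). The SCC-2 peaks at sites without AMA-1 were also lower, with a median score of 363.34 against 553.79 and a median percentile of 54.8 against 70.3. SCC-2 peaks away from any condensin II site ranked lower than either, at a median percentile of 32.6.

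SMC-4, the SMC subunit of condensins I and II, peaked at 195 sites without AMA-1 (33.9%, 30.0 to 37.9) and at 236 with it (61.3%, 56.2 to 66.2), a difference of -27.4 points (-33.5 to -21.1) beside 44.8% of all autosomal sites. MIX-1, the SMC subunit of all 3 condensins, peaked at 155 sites without AMA-1 (26.9%, 23.3 to 30.7) and at 153 with it (39.7%, 34.8 to 44.8), a difference of -12.8 points (-18.9 to -6.76) beside 32.0% of all autosomal sites. At least 1 of the SMC pair was listed at 258 of the 576 sites (44.8%) and both at 92 (16.0%). A majority of the sites without AMA-1 thus had no SMC peak of their own. At sites with AMA-1 both were listed at 124 of 385, and a majority held an SMC-4 peak (61.3%). The SMC lists were short, with 444 autosomal peaks for MIX-1 and 539 for SMC-4.

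KLE-2 in L3 larvae peaked at 440 of the 576 sites (76.4%, 72.7 to 79.8) and at 305 of the 385 (79.2%, 74.8 to 83.2). Of all autosomal sites, 77.5% overlapped this list. The difference was -2.83 points, with an interval from -8.06 to 2.61 that spans 0. Peaks of the larval list at sites without AMA-1 had a median score of 2021.92 (median percentile 66.9), close to 2233.87 (69.1) at sites with AMA-1 and above 793.87 (40.6) at no condensin II site. The larval list was the longest of those compared, with 2190 autosomal peaks over 5.08% of the autosomal span, against 1.85% for SCC-2. The larval and embryonic KLE-2 lists hold the same protein, so this overlap is a repeat of a protein used by the rule in other animals, stage and libraries.

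**Figure D2:**
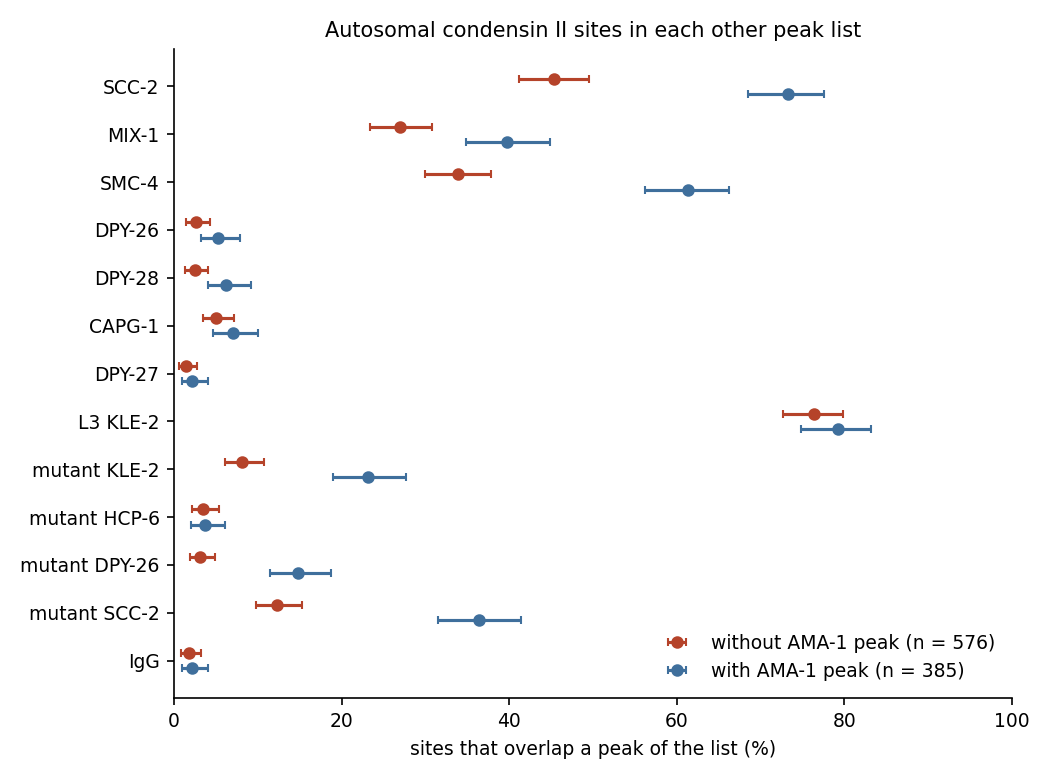
Percentage of autosomal condensin II sites that overlap a peak of each other list, for the 576 sites without (red) and the 385 sites with (blue) an AMA-1 peak, with exact 95% intervals as bars. SCC-2, SMC-4, MIX-1, mutant KLE-2, mutant DPY-26 and mutant SCC-2 stand apart between the groups, while L3 KLE-2 lies at 76.4% and 79.2%.

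Width moved with these differences and was followed by splitting all autosomal condensin II sites into 3 width classes of nearly equal size, up to 1140 bp, up to 1435 bp and wider. In the narrowest class SCC-2 peaked at 26.0% of 250 sites without AMA-1 and 45.1% of 71 with it, in the middle class at 57.7% of 215 and 76.4% of 106, and in the widest class at 64.9% of 111 and 81.2% of 208. SCC-2 was thus less frequent without AMA-1 in each class, with differences of -19.1, -18.7 and -16.4 points and no interval reaching 0. Weighted over the classes the SCC-2 difference was -18.1 points (-24.6 to -11.6), smaller than the unweighted -27.9.

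SMC-4 lay at 12.4% without and 11.3% with AMA-1 in the narrowest class (difference 1.13 points, -8.93 to 8.30), and was less frequent without AMA-1 in the middle class (44.2% against 61.3%) and the widest (62.2% against 78.4%). Weighted over width, its difference was -10.7 points (-16.6 to -4.82). For MIX-1 the weighted difference was -5.90 points, and its interval (-12.1 to 0.311) spanned 0. The narrowest and middle classes differed by -2.90 and -1.48 points for MIX-1, and the widest by -13.4. L3 KLE-2 stayed at 75.6%, 74.0% and 82.9% of sites without AMA-1 across the classes, beside 76.1%, 77.4% and 81.2% with it.

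**Figure D3:**
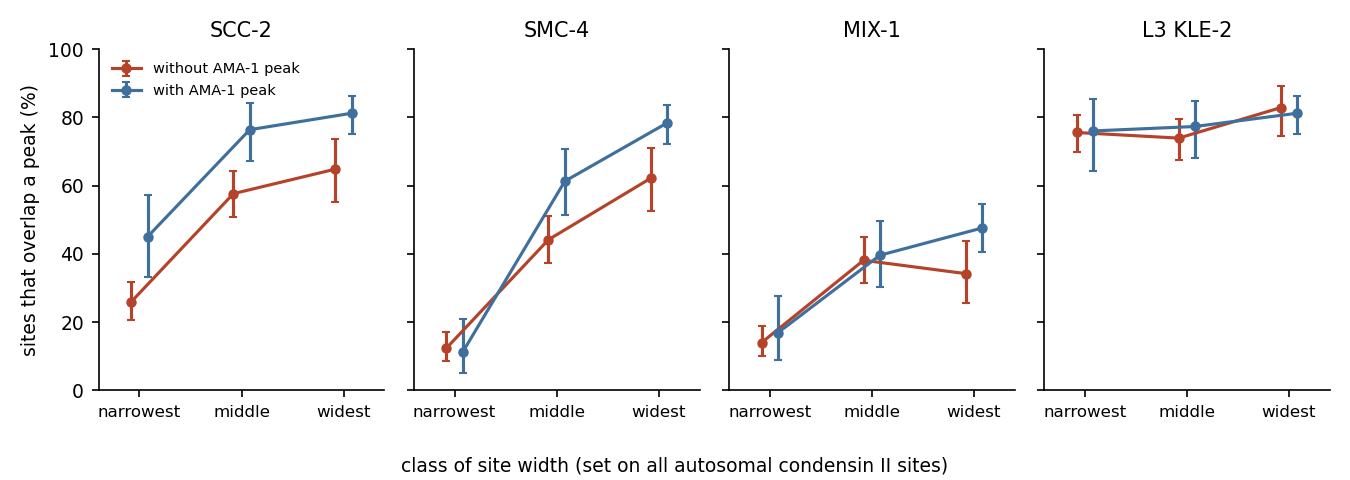
Percentage of sites that overlap a peak of SCC-2, SMC-4, MIX-1 or L3 KLE-2 in each of 3 classes of site width (narrowest, middle and widest), for autosomal condensin II sites without (red) and with (blue) an AMA-1 peak, with exact 95% intervals. SCC-2 is lower without AMA-1 in every class, SMC-4 in the middle and widest classes, and L3 KLE-2 is near the same level throughout.

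The height of condensin II itself moved with all 4 proteins. With the autosomal condensin II sites split into 3 classes of condensin II score percentile, sites without AMA-1 in the lowest class overlapped SCC-2 at 32.5%, SMC-4 at 13.9%, MIX-1 at 13.9% and L3 KLE-2 at 65.8%. In the highest class the values were 62.3%, 64.3%, 46.1% and 92.2%. Sites with AMA-1 rose too, from 58.9%, 32.2%, 18.9% and 58.9% in the lowest class to 84.9%, 83.7%, 57.2% and 92.8% in the highest. Within that highest class the difference between sites without and with AMA-1 was -22.6 points for SCC-2 (-31.7 to -13.0) and -19.4 points for SMC-4 (-28.7 to -9.89). For L3 KLE-2 it was -0.563 points (-6.70 to 5.40). The number of subunits gave the same picture, with SCC-2 at 37.2% of the 376 sites without AMA-1 that held 2 subunits and at 60.5% of the 200 that held 3, and L3 KLE-2 at 68.1% and 92.0%. At sites with AMA-1, SCC-2 lay at 64.6% and 80.7% and L3 KLE-2 at 68.0% and 88.9%.

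At the sites without AMA-1, as at those with it, the embryo proteins occurred together while larval KLE-2 occurred whether or not they were present. SMC-4 lay at 144 of 261 sites with SCC-2 (55.2%, 48.9 to 61.3) and at 51 of 315 without it (16.2%, 12.3 to 20.7). MIX-1 lay at 44.8% of the sites with SCC-2 and at 12.1% of those without. L3 KLE-2 lay at 74.3% of the sites with SCC-2 (68.6 to 79.5) and at 78.1% of those without (73.1 to 82.5). At sites with AMA-1, SMC-4 lay at 73.0% of those with SCC-2 and 29.1% of those without. MIX-1 lay there at 47.9% and 17.5%, and L3 KLE-2 at 80.9% and 74.8%. SCC-2, MIX-1 and SMC-4 were profiled in embryos with partly shared input libraries, and the L3 list had inputs of its own. Of the input libraries, 2 of 3 for SCC-2, 2 of 5 for MIX-1 and 3 of 3 for SMC-4 were also used for a condensin II list, and their part in these overlaps was not tested.

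The commonest combination of the 4 lists was L3 KLE-2 alone, at 184 of the 576 sites (31.9%) against 47 of 385 (12.2%) with AMA-1. All 4 proteins were listed at 64 sites without AMA-1 (11.1%) and at 94 with it (24.4%). SCC-2 with L3 KLE-2 was found at 61 sites, SCC-2 with SMC-4 and L3 KLE-2 at 50, and none of the 4 at 51. Sites that lacked embryonic KLE-2 (52 sites, held by HCP-6 and CAPG-2) carried L3 KLE-2 at 73.1% (59.0 to 84.4), beside 76.7% of the 524 sites that had it. With AMA-1, L3 KLE-2 lay at 14 of the 23 sites that lacked embryonic KLE-2 (60.9%, 38.5 to 80.3). There it lay at 80.4% (75.9 to 84.4) of the 362 sites that had embryonic KLE-2.

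**Figure D4:**
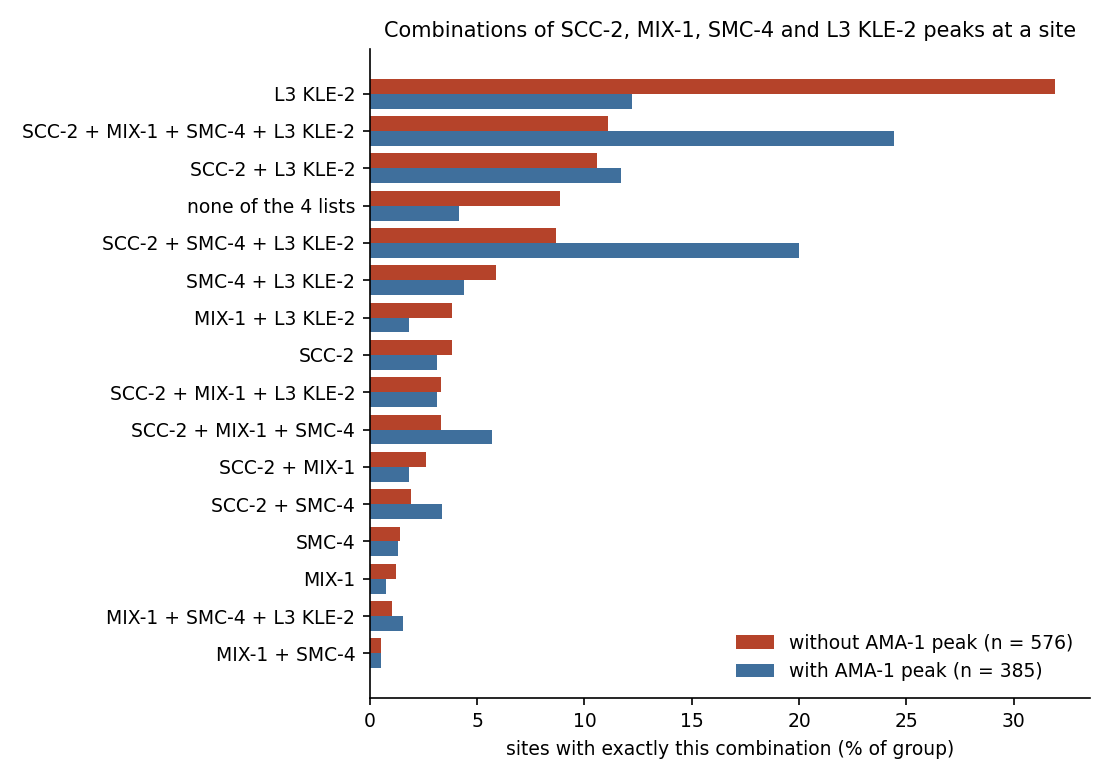
Percentage of the 576 sites without (red) and the 385 sites with (blue) an AMA-1 peak that hold exactly each combination of SCC-2, MIX-1, SMC-4 and L3 KLE-2 peaks. L3 KLE-2 alone leads without AMA-1 at 31.9%, and all 4 together lead with AMA-1 at 24.4%.

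Where peaks of SCC-2, MIX-1, SMC-4 or L3 KLE-2 met a site they covered it almost whole. Median peak widths in these lists ran from 1284 to 1478 bp, beside median sites of 1156.5 bp without and 1505 bp with AMA-1. The part of peak and site width in the cover and the centre distances was not tested. The median site without AMA-1 was covered over 96.8% of its length by SCC-2, 98.0% by MIX-1, 95.7% by SMC-4 and 100% by L3 KLE-2. At sites with AMA-1 the medians were alike, at 98.3%, 96.0%, 94.2% and 99.9%. Without AMA-1 the centres of site and peak lay a median of 46, 36.5, 37.5 and 53 bp apart, in the same order. With AMA-1 they lay 104.25, 60, 92.5 and 204 bp apart. The sites without AMA-1 that missed a list were mostly far from it. Of the 315 sites without an SCC-2 peak, 11 had one within 500 bp, and the median distance was 34402 bp. For the 136 sites without an L3 KLE-2 peak, 7 had one within 500 bp.

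Seen from the other lists, 29.8% of the 870 autosomal SCC-2 peaks lay at a site without AMA-1, 31.8% at a site with it and 38.4% at no condensin II site. For SMC-4 (539 peaks) the shares were 36.2%, 44.2% and 19.7%, and for MIX-1 (444 peaks) 34.9%, 34.2% and 30.9%. Of the 2190 larval KLE-2 peaks 20.0% lay at sites without AMA-1 and 66.3% at no condensin II site of the embryo.

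Among the sites without AMA-1, the intervals of SCC-2, SMC-4 and MIX-1 overlapped between those nearest to and those farthest from an AMA-1 peak. SCC-2 lay at 54.0% of the 50 sites within 500 bp of an AMA-1 peak (39.3 to 68.2) and at 40.4% of the 136 sites beyond 20000 bp (32.1 to 49.2). In the classes between, SCC-2 lay at 48.5%, 45.8% and 44.5%, so its share was lower in each class farther out, within overlapping intervals. SMC-4 lay at 32.0% of the nearest and 35.3% of the farthest sites. MIX-1 lay at 24.0% and 25%, and at 36.4% (26.9 to 46.6) of the 99 sites in the next class after the nearest, up to 2000 bp. L3 KLE-2 lay at 45 of the 50 nearest sites (interval 78.2 to 96.7%) and at 73.5% (65.3 to 80.7) of the farthest. Median widths in the 5 distance classes ran only from 1153 to 1161 bp. Sites that overlapped AMA-1, by comparison, held SCC-2 at 73.2% (68.5 to 77.6).

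**Figure D5:**
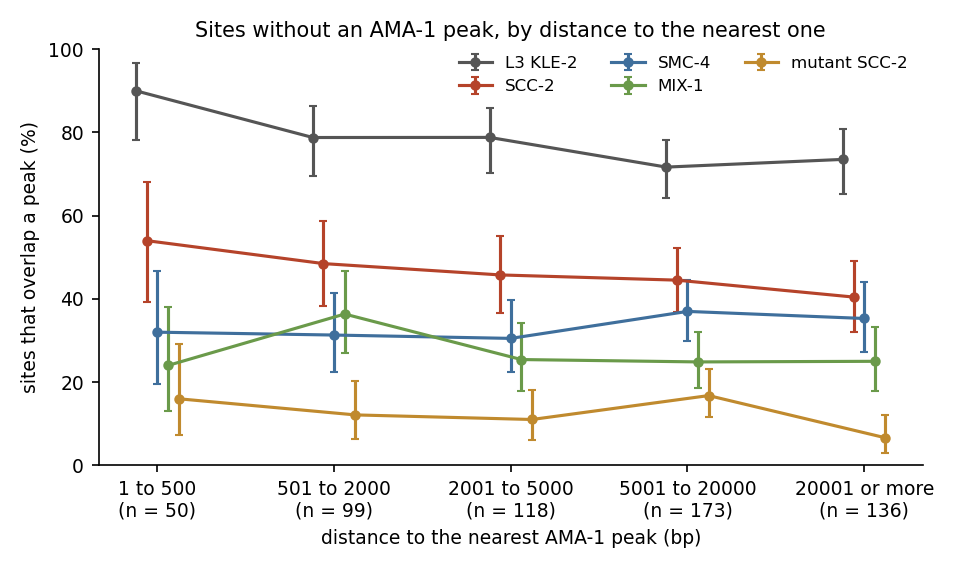
Percentage of the sites without an AMA-1 peak that overlap a peak of L3 KLE-2, SCC-2, SMC-4, MIX-1 or mutant SCC-2, in 5 classes of distance to the nearest AMA-1 peak, with exact 95% intervals and the number of sites in each class. SCC-2 lies at 54.0% in the nearest class and 40.4% in the farthest, and SMC-4 at 32.0% and 35.3%.

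Condensin I and I-DC were rare at the sites without AMA-1, as on autosomes in general. DPY-26, DPY-28 and CAPG-1 are the non-SMC subunits that condensins I and I-DC share. DPY-26 peaked at 15 of the 576 sites (2.60%), where 3.64% of all autosomal condensin II sites overlapped it. DPY-28 peaked at 14 (2.43%, beside 3.95%) and CAPG-1 at 29 (5.03%, beside 5.83%). The differences from sites with AMA-1 were -2.59 points (-5.47 to -0.145), -3.80 points (-6.84 to -1.23) and -1.98 points (-5.33 to 1.03). Weighted over width they were -0.830 points for DPY-26 (-3.15 to 1.49) and -0.960 for DPY-28 (-3.32 to 1.4), so neither interval then stayed below 0. DPY-27, the subunit that defines condensin I-DC, peaked at 8 sites (1.39%, beside 1.66%).

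At least 2 of the 3 condensin I subunits met at 19 of the 576 sites without AMA-1 (3.30%, 2.00 to 5.10) and at 19 of the 385 with it (4.94%, 3.00 to 7.60). All 19 without AMA-1 held SCC-2 and MIX-1 and 17 held SMC-4, beside 45.3%, 26.9% and 33.9% of all 576. MIX-1 and SMC-4 also belong to condensin I. L3 KLE-2 lay at 13 of the 19 sites (68.4%, 43.4 to 87.4), beside 76.4% of all 576. IgG peaks lay at 3 of the 19 sites (15.8%, 3.38 to 39.6) and at 10 of all 576 (1.74%, 0.836 to 3.17), beside 1.87% of all autosomal sites. These lists were not counted at the 19 sites with AMA-1. The IgG list had 21 autosomal peaks, 10 of them at sites without AMA-1 and 8 at sites with it, and the part of nonspecific pull-down at these sites was not tested. The X gives the contrast, where 153 of the 202 condensin II sites also had no AMA-1 peak, and of these DPY-26 lay at 95.4%, MIX-1 at 97.4%, SCC-2 at 78.4%, SMC-4 at 75.2% and L3 KLE-2 at 56.9% (48.6 to 64.8).

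The sdc-2 mutant lists held few of the sites without AMA-1, and those lists were short. Mutant SCC-2 had 246 autosomal peaks, mutant KLE-2 177, mutant DPY-26 80 and mutant HCP-6 44. Any of the 4 mutant lists was met at 107 of the 576 sites (18.6%) and at 153 of the 385 with AMA-1 (39.7%). Mutant SCC-2 lay at 71 sites without AMA-1 (12.3%, 9.75 to 15.3) and 140 with it (36.4%, 31.5 to 41.4), beside 22.0% of all autosomal sites, a difference of -24.0 points (-29.5 to -18.5). Mutant KLE-2 lay at 47 (8.16%) and 89 (23.1%), beside 14.2%, a difference of -15.0 points (-19.8 to -10.3). Mutant DPY-26 lay at 18 (3.12%) and 57 (14.8%), beside 7.80%, a difference of -11.7 points (-15.7 to -8.03).

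Width and condensin II height moved with these differences too. Weighted over width they came to -11.8 points for mutant SCC-2 (-16.8 to -6.82), -6.19 for mutant KLE-2 (-10.3 to -2.04) and -5.22 for mutant DPY-26 (-8.49 to -1.95). In the highest class of condensin II score, mutant SCC-2 lay at 30.5% of sites without AMA-1 and 62.7% with it. Of the sites that held SCC-2 in the wild type, 26.1% without AMA-1 (68 of 261, 20.8 to 31.8) and 47.5% with it (134 of 282, 41.6 to 53.5) were also in the mutant SCC-2 list. The 47 sites without AMA-1 in the mutant KLE-2 list had a median wild-type score percentile of 73.4, against 47.3 for the other 529.

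HCP-6 in the mutant went another way. It lay at 20 sites without AMA-1 (3.47%, beside 3.54% of all autosomal sites) and 14 with it (3.64%), a difference of -0.164 points (-2.83 to 2.18). Its peaks at sites without AMA-1 had the higher scores, with a median of 867.945 against 221.32. Mutant SCC-2 lay at 5 of the 20 sites (25%, 8.66 to 49.1), beside 12.3% of all 576, and mutant DPY-26 at 3 (15%, 3.21 to 37.9), beside 3.12%. Of the 14 with AMA-1, mutant SCC-2 lay at 12 (85.7%, 57.2 to 98.2) and mutant DPY-26 at 11 (78.6%, 49.2 to 95.3). Only 1 of the 20 was also in the mutant KLE-2 list (5.00%, 0.127 to 24.9), whereas 12 of the 14 with AMA-1 were (85.7%, 57.2 to 98.2). SCC-2 of the wild type lay at 5 of the 20 (25%, 8.66 to 49.1) and at 36 of the 47 mutant KLE-2 sites (76.6%, 62.0 to 87.7). With AMA-1 it lay at 13 of the 14 mutant HCP-6 sites and at 80 of the 89 mutant KLE-2 sites. L3 KLE-2 lay at 19 of the 20, beside 76.4% of all 576, and wild-type embryo KLE-2 at 17, beside 91.0%. SMC-4 lay at 11, beside 33.9%. Of the 14 with AMA-1, these lists held 14, 14 and 12. The 20 sites had a median wild-type score percentile of 71.4, beside 49.1 for all 576 and 93.8 for the 14 with AMA-1. In the highest class of condensin II score, sites without AMA-1 held L3 KLE-2 at 92.2% and SMC-4 at 64.3%. IgG lay at 2 of the 20 (10%, 1.23 to 31.7), beside 1.74% of all 576, and at 2 of the 14. By chromosome, 8 of the 20 were on chromosome IV, 5 on II, 3 each on I and III and 1 on V. Of all 576, 114 were on IV, 108 on II, 143 on I, 134 on III and 77 on V. Of the 14 with AMA-1, 4 were on IV.

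The sites without AMA-1 were spread over all autosomes. From chromosome I to chromosome V they numbered 143, 108, 134, 114 and 77, or 9.50, 7.08, 9.73, 6.56 and 3.69 per Mb. AMA-1 peaks followed a like order at 34.1, 25.1, 33.3, 25 and 17.6 per Mb. The share of condensin II sites without AMA-1 was 62.4%, 57.8%, 63.2%, 59.1% and 55.0% in the same order, with overlapping intervals, and 75.7% (69.2 to 81.5) on the X. SCC-2 lay at 42.6% of the sites without AMA-1 on II and 50.6% on V, the lowest and highest values, and L3 KLE-2 ran only from 74.1% on II to 77.6% on I.

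Along the chromosomes, each cut into 5 equal parts, the sites without AMA-1 numbered 116, 137, 120, 101 and 102 from left to right, and the sites with AMA-1 57, 71, 86, 95 and 76. The share without AMA-1 was 67.1% (59.5 to 74.0) in the first part and 51.5% (44.3 to 58.7) in the fourth. On chromosome II it ran from 17 of 20 sites in the first part to 17 of 42 in the fourth. It was also lower in the fourth part on III (70% and 57.5%), IV (71.1% and 38.5%) and V (52.4% and 45.5%). Chromosome I went the other way, with 59.6% (44.3 to 73.6) in the first part and 67.9% (53.7 to 80.1) in the fourth. On V the last part had the highest share, 72.2% (46.5 to 90.3). The nearest other autosomal condensin II site was a median of 23497.5 bp from a site without AMA-1 and 15588 bp from a site with it. That neighbour was itself without AMA-1 for 66.0% (61.9 to 69.8) of the former and 46.2% (41.2 to 51.4) of the latter, beside 576 of 961 sites overall.

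Sites without AMA-1 ranged from bare condensin II to sites found in nearly every list. Setting IgG aside, 49 sites (8.51%) were in none of the other 12 lists and 201 (34.9%) in 1. A further 147 were in 2 lists, 78 in 3 and the rest in 4 to 11. Sites with AMA-1 ranged as widely, with 16 (4.16%) in none, 65 (16.9%) in 1 and 2 in all 12. L3 KLE-2 was the only other list at 166 sites without AMA-1. The 49 sites in no other list were narrow (median 1092 bp) and low (median score percentile 31.9, against 50.3 for the others), and 3 of them held all 3 subunits. Among those 3, chrIII:8357645-8358919 scored 209.89 in the KLE-2 list, 439.15 in the HCP-6 list and 214.05 in the CAPG-2 list.

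At the other end, chrIII:5030892-5032278, 2418 bp from the nearest AMA-1 peak, was in 11 of the 12 lists, all but mutant HCP-6. Its scores were 1913.47 for KLE-2, 1628.93 for SCC-2, 2498.82 for MIX-1 and 1047.97 for SMC-4, and the condensin I subunits DPY-26, DPY-28 and CAPG-1 scored 503.99, 529.55 and 712.53. Its mutant SCC-2 peak scored 441.49 and its mutant KLE-2 peak 310.25. This site lacked an IgG peak. chrIII:7853980-7855691 was in 10 lists and had the highest condensin II percentile of the named sites (97.2), with KLE-2, HCP-6, CAPG-2 and L3 KLE-2 all at 3100.

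Of the 6 sites in 9 lists, 3 held an IgG peak as well and 3 did not. The 3 with IgG were those with the highest condensin II percentiles on chromosomes II to V, by which the sites named here were taken. At chrIII:8043315-8044515, 25666 bp from AMA-1, IgG scored 1011.02 beside 3100 for KLE-2 and for MIX-1. At chrIII:10460065-10461869 IgG scored 163.66, and at chrIV:653285-655524 it scored 113.27. The highest IgG score, 3100, was at chrIII:7940449-7942677, where KLE-2 and L3 KLE-2 also reached 3100 and no SCC-2, MIX-1 or SMC-4 peak was listed. Without the sites that overlap IgG, the SCC-2 difference between sites without and with AMA-1 was -28.0 points and the L3 KLE-2 difference -2.28.

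The highest sites of chromosomes II, IV and V each held SCC-2, MIX-1, SMC-4 and L3 KLE-2 peaks. Of the condensin I and I-DC subunits, the site on II held DPY-28 and CAPG-1 and those on IV and V held none, while chrIII:7853980-7855691 held DPY-27, CAPG-1 and DPY-28. On II it was chrII:8560748-8561971, 19245 bp from AMA-1, with KLE-2, HCP-6 and L3 KLE-2 at 3100, SCC-2 at 1242.62 and mutant SCC-2 at 253.49. On IV it was chrIV:4747299-4750708, with HCP-6 at 3100, mutant HCP-6 at 254.99 and IgG at 295.24. On V it was chrV:14054539-14055726, 25466 bp from AMA-1, with KLE-2 at 3100, SCC-2 at 488.46 and mutant KLE-2 at 188.65. The widest named site, chrIII:1923014-1927237 (4224 bp), had SCC-2 at 3100 in the wild type and in the mutant, mutant KLE-2 at 1384.34 and no MIX-1 peak.

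DPY-27 was listed at named sites on 3 chromosomes. Besides the sites above on III and IV, it scored 303.97 at chrII:14803562-14805255, which also held DPY-26 (628.46) and CAPG-1 (714.4) and had no L3 KLE-2 peak. At chrIV:4389272-4391331, 53999 bp from the nearest AMA-1 peak, it scored 128.51. That site held the mutant HCP-6 peak with a score of 2421.86 and no mutant KLE-2, SCC-2 or DPY-26 peak.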

How the data were processed

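The authors aligned single-end reads to the WS220 genome with Bowtie 0.12.7, combined the libraries of each protein and strain, called peaks with MACS against input with e-10 as the largest p-value, and dropped peaks not found in a majority of the libraries. The deposited lists give position and MACS score, 1 list for each of 17 protein and strain sets (57 ChIP libraries). Embryos came from adults grown at 20 °C and were fixed in 2% formaldehyde for 30 min.

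Positions were written 1-based. Overlap needed 1 base. Chromosome spans ended at the last base of any list. Python 3 with numpy and scipy was used, and the interval code was tested on simulated lists. Named sites, on chromosomes II to V only, were the highest on each chromosome, the 5 in most other lists, up to 3 with all 3 subunits and no other list, 3 on each side of the AMA-1 edge, the widest, and up to 5 each with IgG or DPY-27. The members, lists and rules were chosen with earlier results of these data known. Alternatives varied the overlap rule, the score cutoff, merging, the AMA-1 distance, width and score weighting and the autosomes used. No genome or annotation of WS220 was used here, so genes and sequences at the sites were not analysed, nor were the expression tables joined to them.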

Additional observations from a re-analysis of the deposited data

How the results depend on the processing

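No paired analysis was possible because each protein has 1 list pooled over libraries and no value per replicate; for the same reason no library could be left out. The count of 576 sites without AMA-1 fell to 203 where all 3 subunits had to cover a base and to 220 with the peaks at or above the median score of each condensin II list, and stayed within 1.5 times under the other 4 settings. No difference whose interval lay below 0 changed sign under any setting. Among the differences, 186 of the alternative values stayed inside the interval first given and 21 left it. Requiring all 3 subunits raised the shares to 61.1% (SCC-2), 37.9% (MIX-1), 58.6% (SMC-4), 5.91% (DPY-26, DPY-28 and mutant HCP-6 each), 8.87% (CAPG-1), 3.94% (DPY-27), 91.6% (L3 KLE-2), 15.8% (mutant KLE-2), 7.39% (mutant DPY-26) and 21.7% (mutant SCC-2), and moved the differences to -20.1 (SCC-2), -18.8 (SMC-4) and 3.36 points (L3 KLE-2, -2.54 to 9.25). Keeping peaks at or above the median score of the other list, which removes peaks by construction, gave shares of 24.3% (SCC-2), 10.8% (MIX-1), 17% (SMC-4), 0.347% (DPY-26), 0% (DPY-28 and DPY-27, which allows up to 0.638%), 1.04% (CAPG-1), 52.8% (L3 KLE-2), 3.30% (mutant KLE-2), 2.08% (mutant HCP-6), 0.694% (mutant DPY-26) and 6.08% (mutant SCC-2), and differences of -4.82 (MIX-1), -20.9 (SMC-4), -9.17 (mutant KLE-2) and -17.3 points (mutant SCC-2). Weighting over width moved the differences to -18.1 (SCC-2), -5.90 (MIX-1), -10.7 (SMC-4), -0.960 (DPY-28), -6.19 (mutant KLE-2), 2.18 (mutant HCP-6, -0.0942 to 4.45), -5.22 (mutant DPY-26) and -11.8 points (mutant SCC-2). Weighting over condensin II score moved them to -19.0 (SMC-4), -9.34 (mutant KLE-2) and -16.6 points (mutant SCC-2). Peaks covering at least 50% of a site gave -9.50 (mutant KLE-2) and -6.31 (mutant DPY-26), and a peak at the site's centre -7.70 points (mutant DPY-26). Of the 8 differences with an interval below 0, those for DPY-26 and DPY-28 lost that under 10 and 4 settings and that for MIX-1 under width weighting. Leaving out 1 autosome gave -30.2 to -26.6 points for SCC-2 and -3.80 to -0.855 for L3 KLE-2. The settings chosen after seeing the data were a fixed window of 1000 bp around the centre and leaving out sites with an IgG peak. Neither moved a value out of its interval. The causes of these moves were not tested.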
